A study of Mus musculus with 18 samples.

Results

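The genes described here encode 10 proteins of the Z-disc, the structure that borders each sarcomere of striated muscle, and are Actn2, Actn3, Ldb3, Myoz1, Myoz2, Myot, Tcap, Csrp3, Pdlim3 and Des. They were found through the Ensembl identifiers that belong to these symbols, and 10 of 10 were among the 19153 genes of the deposited RNA-seq tables. RNA had been sequenced from immortalized mouse myoblasts, muscle precursor cells that fuse into contractile myotubes when serum is withdrawn. The 18 libraries fell into 6 groups of 3 replicates, from wildtype (WT) and LAP2α knockout (KO) cells in 3 states. Cells were proliferating (Prol) or had grown to confluence (D0), both in 20% fetal calf serum. For D2 they had been kept for 48 h in 5% serum. Cells of all groups carried a p53 knockout, the KO cells were a sorted population edited with Cas9 and not a clone, and the WT cells had received the Cas9 vector without a guide. LAP2α is a nucleoplasmic partner of lamin A/C, and the design asks how its loss bears on early myogenic differentiation. No source says that replicates came from separate cultures, so p-values measure the spread between these samples, which may be technical.

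At the Z-disc, the barbed ends of actin filaments from neighbouring sarcomeres are cross-linked by α-actinins. Onto the α-actinins are fastened the myozenins, myotilin and the PDZ-LIM proteins, while telethonin caps the amino terminus of titin and the LIM protein Csrp3 is a candidate sensor of mechanical load. Desmin filaments tie the Z-discs of neighbouring myofibrils together and to the membrane. Most of these genes belong to the program that MyoD, myogenin and MEF2 factors switch on during myogenic differentiation, and mutations in many of them cause myopathies or cardiomyopathies.

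Of the members, 6 were given a window from a start site in the RefSeq promoter table of build GRCm38.p6. Myot was left out of this search. The 250 bases before each start were searched on both strands for motifs bound by myogenic factors. Where RefSeq gave more than 1 start, as for Ldb3 and Csrp3, the most upstream was used. The E-box CANNTG was found in 5 of 6 windows, beside 66.2% of all 32851 windows of this length, and its CAGCTG form, counted among the E-boxes too, in 3 of 6 (Myoz2, Pdlim3 and Des) beside 13%. A MEF2 motif was found for Myoz2 (2.92% of all windows) and a CArG motif, bound by SRF, for Ldb3 (1.47%). GENCODE annotates the last 28 bases of the Myoz2 window as exon. The Myoz2 E-boxes, which begin 22 and 12 bases before the start, lie in that exon. Its MEF2 motif, which begins at 33 bases, lies partly in it. The windows of 4 members are shown because these genes mark the range of the results below, Actn2 with the largest fitted rise at D2 in WT cells, Ldb3 with the smallest in both genotypes, Pdlim3 with the most even WT values at D2, and Des with the highest level. Capitals mark E-boxes, or the CArG motif in Ldb3. Bases that GENCODE annotates as exon were left off the 3′ end. The window of Actn2 is chr13:12340761-12340982 on the minus strand, that of Ldb3 chr14:34588683-34588931 on the minus strand, that of Pdlim3 chr8:45885237-45885460 on the plus strand and that of Des chr1:75360042-75360291 on the plus strand.
Actn2: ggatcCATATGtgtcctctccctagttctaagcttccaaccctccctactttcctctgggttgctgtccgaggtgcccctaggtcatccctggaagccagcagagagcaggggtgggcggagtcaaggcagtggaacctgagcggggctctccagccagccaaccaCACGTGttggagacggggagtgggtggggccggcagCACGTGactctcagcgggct
Ldb3: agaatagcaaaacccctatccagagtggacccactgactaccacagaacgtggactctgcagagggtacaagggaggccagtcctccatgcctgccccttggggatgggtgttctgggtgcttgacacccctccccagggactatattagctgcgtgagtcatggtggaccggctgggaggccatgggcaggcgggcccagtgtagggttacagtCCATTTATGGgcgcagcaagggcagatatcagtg
Pdlim3: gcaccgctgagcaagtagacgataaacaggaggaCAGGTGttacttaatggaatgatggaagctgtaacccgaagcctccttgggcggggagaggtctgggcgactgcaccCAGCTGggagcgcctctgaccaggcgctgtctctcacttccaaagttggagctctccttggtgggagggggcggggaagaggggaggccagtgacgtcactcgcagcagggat
Des: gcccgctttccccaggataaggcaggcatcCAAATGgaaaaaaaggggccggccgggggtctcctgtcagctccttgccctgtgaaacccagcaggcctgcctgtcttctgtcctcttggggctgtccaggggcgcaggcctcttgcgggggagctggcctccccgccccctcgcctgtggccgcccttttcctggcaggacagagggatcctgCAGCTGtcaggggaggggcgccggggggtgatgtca
The CAGCTG motif began 36 bases before the start of Des and 139 bases before that of Pdlim3. The Actn2 window held CACGTG at 84 and 48 bases and CATATG at 245 bases before its start. These matches are letters in a window and were not tested for binding.

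The deposited values are CPM, read counts scaled to a common library size. Library totals were 26437823 to 41619016 expected counts, and 3 counts, the most that a count of 0 allows, came to 0.0759 to 0.138 CPM. Intervals and limits from counts cover the counting error of the Prol counts only. The targeted gene, Tmpo, ranged from 228 to 315 CPM in Prol, 191 to 302 in D0 and 94.5 to 157 in D2. It was counted over all its isoforms, LAP2β included, so it cannot check the loss of LAP2α, and its log2 difference between KO and WT was -0.28, -0.25 and -0.21 at Prol, D0 and D2. Of 6 myoblast markers, Pax7 and Msc were not among the listed genes. The 4 listed markers summed to 25.3 to 39.7 CPM in WT Prol and 30.7 to 43.5 in KO Prol. At D2 they summed to 315 to 427 CPM in WT and 212 to 256 in KO. Myod1 averaged 2.59 CPM in WT Prol and 3.63 in KO Prol, and 88.9 in WT D2 and 57.2 in KO D2. Myog, which drives differentiation, averaged 0.78 CPM in WT Prol and 0.93 in KO Prol, and 393 in WT D2 and 198 in KO D2. The D2 libraries numbered 1 stood apart from the others of their groups in both genotypes. Their deviations from the group means correlated most of all same-numbered pairs (r = 0.645 across genes, which are not independent replicates), and Ttn was high in them (427 CPM in WT and 815 in KO, beside 84.7 to 114 in the other 4 D2 libraries). The KO and WT values of D2 are given below with and without them.

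**Figure D1:**
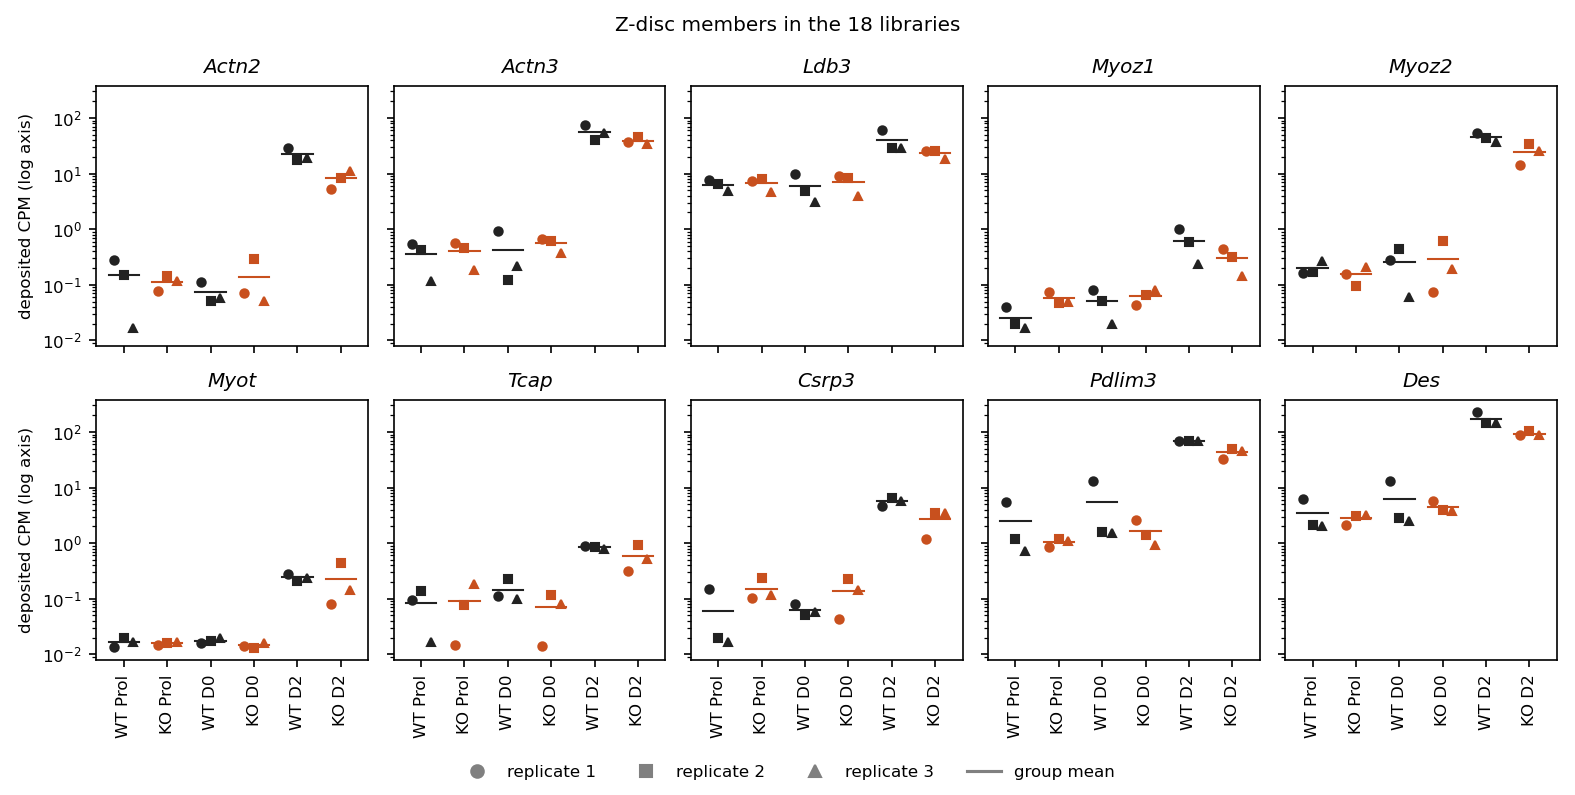
Deposited CPM of each of the 10 members in the 18 libraries on a log axis shared by the panels, with 1 point per library (circle, square and triangle for replicates 1, 2 and 3), a bar for the group mean, WT in black and KO in orange. In each panel the 6 libraries of D2 lie above the 12 of Prol and D0, and at D2 the KO mean lies below the WT mean.

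Z-disc genes rose steeply between proliferation and D2 in WT and in KO cells. With limma on log2 CPM and Benjamini-Hochberg adjustment over the 17672 genes tested, 10 of 10 members were called higher in WT D2 than in WT Prol, where 16.6% of all genes were called higher, and 10 of 10 in KO D2 against KO Prol, where 17.1% were. The libraries of D2 and Prol did not overlap for 10 of 10 members in either genotype, beside 23.0% and 25.1% of all genes that were higher without overlap. Their median log2 fold change was 5.58 in WT and 4.59 in KO, beside -0.01 and 0.02 over all genes, and the medians of the members are the same with Myot, absent before D2, at its lower bound. These counts lean on the filter, since Actn2, Myoz1, Myoz2, Myot, Tcap and Csrp3 passed the filter on low values, over 5 expected counts in each library of some group, only through D2 groups and so had to be higher there. In bulk RNA, fewer differentiated cells and less of an RNA per cell cannot be told apart.

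The sarcomeric α-actinins were nearly silent before differentiation. Actn2 (ENSMUSG00000052374, chromosome 13, 12269426 to 12340760), the isoform of all striated muscle, was at 0.281, 0.147 and 0.0169 CPM in WT Prol and at 0.0758, 0.147 and 0.117 in KO Prol, where 0.0169 stands for a count of 0. At D2 it reached 29.4, 17.7 and 19.5 CPM in WT and 5.2, 8.44 and 11.3 in KO. All D2 libraries were thus far above Prol, and the KO libraries of D2 lay below the WT ones. Its log2 fold change between D2 and Prol was 7.93 (SE 0.84, adjusted p = 4.17e-06, limma) in WT and 6.18 (adjusted p = 4.2e-05) in KO. The WT value was 8.76 without WT Prol replicate 1 and 6.73 without WT Prol replicate 3, the library with no counts. From summed counts the rise was 153-fold in WT (exact 95% interval 90.1 to 286) and 88.4-fold in KO (46.8 to 191).

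Actn3 (ENSMUSG00000006457, chromosome 19, 4861216 to 4877909), the isoform of fast glycolytic fibres, followed the same course. It stood at 0.549, 0.415 and 0.118 CPM in WT Prol and 0.554, 0.456 and 0.183 in KO Prol. By D2 it was at 75.7, 40.2 and 53.7 CPM in WT and 36.4, 46.1 and 33.5 in KO. Here KO replicate 2 exceeded WT replicate 2, so the genotypes overlapped. The log2 fold changes were 7.51 (SE 0.68, adjusted p = 1.08e-06, limma) in WT, or 6.84 without WT Prol replicate 3, and 6.74 (adjusted p = 2.91e-06) in KO.

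Among the α-actinin partners, Myoz2 and Myoz1 differed widely in level. Myoz2 (ENSMUSG00000028116, chromosome 3, 123006206 to 123035015), known as calsarcin-1 of heart and slow fibres, ranged from 0.0962 to 0.267 CPM over the 6 Prol libraries. It was at 53.5, 44.1 and 37.0 CPM in WT D2 and at 14.2, 33.9 and 25.8 in KO D2, and each KO library lay below each WT library. Its log2 rise was 7.84 (SE 0.72, adjusted p = 1.27e-06, limma) in WT and 7.30 (adjusted p = 2.56e-06) in KO. Myoz1 (ENSMUSG00000068697, chromosome 14, 20649107 to 20656540), the calsarcin of fast fibres, had 0 to 2 counts in each Prol library and only 0.998, 0.588 and 0.239 CPM in WT D2 and 0.442, 0.315 and 0.144 in KO D2. These rest on 62 counts in WT D2 and 32 in KO D2, against 1 and 4 counts in Prol, which gave count ratios of 54.1 (exact 95% interval 9.72 to 2138) and 6.63 (2.59 to 24.3). The KO call of Myoz1 (log2 2.28, adjusted p = 0.0163, limma) was lost without KO Prol replicate 2 (adjusted p = 0.0512), KO Prol replicate 3 (0.0528), KO D2 replicate 1 (0.0661) or KO D2 replicate 2 (0.0549). It was also lost without both D2 libraries numbered 1 (adjusted p = 0.0551) and with a pseudocount of 1 CPM (log2 0.29, adjusted p = 0.0901).

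Myotilin, which bundles actin with α-actinin, was the member closest to the detection limit. Myot (ENSMUSG00000024471) had a count of 0 in all 12 libraries of Prol and D0, which allows up to 3 counts. At D2 it had 9, 7 and 8 counts in WT and 2, 20 and 5 in KO, or 0.283, 0.205 and 0.239 CPM and 0.0818, 0.445 and 0.144 CPM. Set against 3 counts over the Prol group, its D2 counts were 6.98-fold higher in WT and 7.46-fold higher in KO. Against the upper limit of the exact 95% interval for 0 counts in Prol, the ratio was 5.68 in WT and 6.07 in KO. The counting error of the D2 counts is not included in these ratios. The KO libraries of Myot thus spread on both sides of the WT ones, and its KO log2 rise of 3.46 fell to 2.78 without KO D2 replicate 2.

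The PDZ-LIM genes, like Des, passed the filter on low values already in Prol. Ldb3 (ENSMUSG00000021798, chromosome 14, 34526603 to 34588682), also called ZASP or Cypher, was at 7.52, 6.57 and 4.78 CPM in WT Prol and 7.28, 8.0 and 4.68 in KO Prol. It reached 60.5, 29.0 and 29.2 CPM in WT D2 and 25.5, 25 and 18.6 in KO D2. The genotypes did not overlap at D2, though the highest KO library was close to the lowest WT library, and WT replicate 1 was well above the other WT libraries. This was the smallest rise of the 10 members, at log2 2.59 (SE 0.42, adjusted p = 0.000206, limma) in WT and 1.81 (adjusted p = 0.00337) in KO.

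Pdlim3 (ENSMUSG00000031636, chromosome 8, 45885461 to 45919548), which encodes the α-actinin-associated LIM protein ALP, was at 5.56, 1.21 and 0.725 CPM in WT Prol and 0.854, 1.18 and 1.08 in KO Prol. At D2 the WT libraries were alike at 68.1, 69.6 and 68.1 CPM, and the KO libraries were lower and more spread at 32.4, 50.1 and 46.4. Its rise was log2 5.34 (SE 0.74, adjusted p = 5.44e-05, limma) in WT and 5.36 (adjusted p = 5.28e-05) in KO. The WT value depended on the Prol libraries, with 6.20 without WT Prol replicate 1, the highest, and 4.73 without WT Prol replicate 3, the lowest.

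The titin cap and the LIM sensor stayed low. Tcap (ENSMUSG00000007877, chromosome 11, 98383811 to 98384953), telethonin, was at 0.908, 0.861 and 0.773 CPM in WT D2 and 0.311, 0.944 and 0.511 in KO D2, from 0 to 5 counts in each Prol library. The KO values were scattered around and below the WT ones. Its log2 rise was 3.81 (adjusted p = 0.00695, limma) in WT, with 4.41 without WT Prol replicate 2 and 2.89 without WT Prol replicate 3. In KO the Tcap value was 3.15 (adjusted p = 0.0203), with 3.95 without KO Prol replicate 3. That KO call was lost without KO Prol replicate 1 (log2 2.15, adjusted p = 0.115) or KO D2 replicate 2 (adjusted p = 0.0838).

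Csrp3 (ENSMUSG00000030470, chromosome 7, 48830398 to 48848033), muscle LIM protein, was at 0.147, 0.0198 and 0.0169 CPM in WT Prol, the last 2 being counts of 0, and at 0.105, 0.236 and 0.117 in KO Prol. At D2 it was at 4.69, 6.49 and 5.84 CPM in WT and 1.19, 3.53 and 3.47 in KO. Each KO library of D2 was below each WT library, and KO replicate 1 was the lowest. The log2 rise of Csrp3 was 7.26 (SE 0.77, adjusted p = 4.39e-06, limma) in WT, or 8.27 without WT Prol replicate 1, and 4.10 (adjusted p = 0.000731) in KO. By summed counts it was 105-fold (exact 95% interval 44.9 to 323) in WT and 21.0-fold in KO.

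Desmin was the most abundant member at D2, per length of exons as well as in CPM. Des (ENSMUSG00000026208, chromosome 1, 75360329 to 75368579), the muscle intermediate filament, was at 6.12, 2.11 and 2.08 CPM in WT Prol and 2.11, 3.07 and 3.18 in KO Prol. At D2 it was at 231, 144 and 143 CPM in WT and 86.8, 103 and 87.4 in KO. All KO libraries were below all WT libraries, and WT replicate 1 was far above the other WT libraries. Its log2 rise was 5.81 (SE 0.52, adjusted p = 9.76e-07, limma) in WT and 5.07 (adjusted p = 3.38e-06) in KO. An antisense gene, Gm15179, shares 220 exonic bases with Des and is not among the listed genes. The library kit keeps the strand, and the authors' counting used it.

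**Figure D2:**
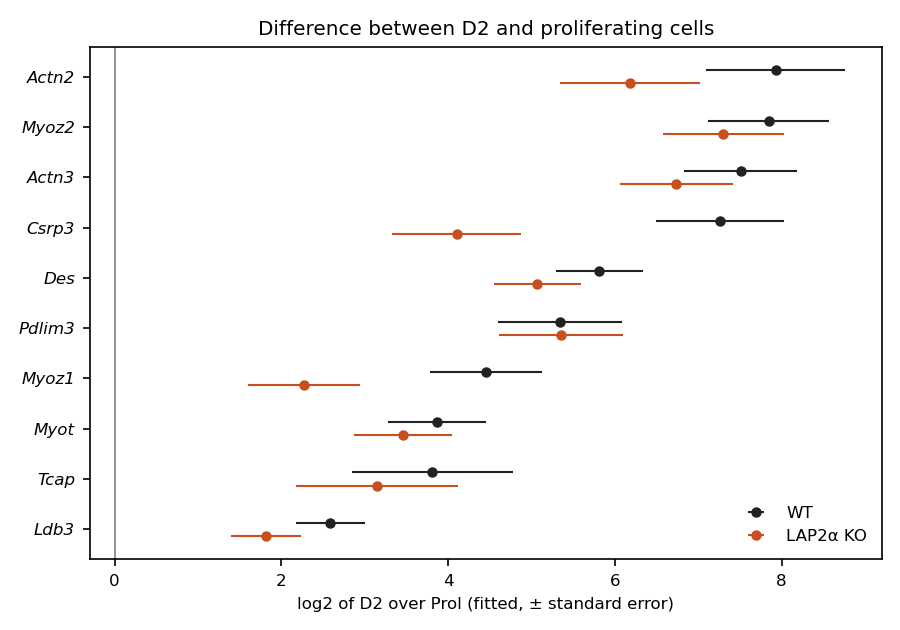
Fitted log2 fold change of D2 over Prol for each member in WT (black) and KO (orange), with bars of 1 standard error on either side. All points lie right of 0, from 2.59 (Ldb3) to 7.93 (Actn2) in WT and from 1.81 (Ldb3) to 7.30 (Myoz2) in KO.

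By a further rule, the 1.5-fold rule, which asks for 10 CPM or more in some compared library, a change above 1.5-fold and an unadjusted p below 0.05, 6 members were higher at D2 than at Prol in each genotype, beside 10.8% of all genes in WT and 11.3% in KO. These were Actn2, Actn3, Ldb3, Myoz2, Pdlim3 and Des, and the other 4 stayed below 10 CPM. The study's methods word the change as a log2 value, and with log2 over 1.5 in place of 1.5-fold the same count of 6 members was higher in each genotype, beside 4.41% of all genes in WT and 4.65% in KO. The comparison of D2 with D0 gave 9 of 10 members higher in WT (14.7% of all genes) and 10 of 10 in KO (15.3%), and the exception was Tcap (log2 2.65, adjusted p = 0.055 with limma). D2 libraries enter all of these comparisons, so they are not independent.

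Confluence by itself brought no call. Between D0 and Prol, 0 of 10 members passed an adjusted p of 0.05 with limma in WT (0.00566% of all genes) and 0 in KO (0.0%), and 0 had an unadjusted p under 0.05 in either genotype. The nearest to a shift was Des in KO, at 5.81, 3.93 and 3.82 CPM in D0 against 2.11, 3.07 and 3.18 in Prol. Those Des libraries did not overlap, beside 2.41% of all genes that were higher without overlap, and the log2 difference was 0.70 (SE 0.52, unadjusted p = 0.2). In WT D0, replicate 1 held the highest value of 7 of 10 members, with Pdlim3 at 13.2 CPM beside 1.57 and 1.54 and Des at 13.3 CPM beside 2.84 and 2.52. WT Prol replicate 1 was likewise highest for 7 of 10, and in these libraries the summed CPM of 6 differentiation markers (Myog, Mymk, Mymx, Myh3, Ckm and Acta1) was 25.1 in WT D0 replicate 1 beside 2.82 and 4.09, and 12 in WT Prol replicate 1 beside 3.35 and 2.10. The part of these markers in the values of Pdlim3 and Des was not tested.

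Before differentiation the genotypes were not told apart. With limma, 0 of 10 members were called between KO and WT in Prol (0.00566% of all genes) and 0 in D0 (0.0%). In Prol, Csrp3 had the only unadjusted p under 0.05 among the members (log2 1.96, unadjusted p = 0.0219 with limma, adjusted p = 1), beside 1.11% of all genes, and this rests on 13 counts in KO against 5 in WT. Myoz1 was the single member whose KO and WT libraries of Prol did not overlap (1.85% of all genes higher without overlap), on 4 counts against 1. Fitted differences were positive for 5 members and negative for 5 in Prol, where 8916 of 17672 genes were positive. In D0 they were positive for 6 members, where 9432 of 17672 genes were positive. Myot had a count of 0 in each of these libraries, so the sign of its values follows from the scaled library totals alone.

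At D2, the fitted value of each of the 10 members was lower in KO than in WT, but no difference passed the tests of limma. By summed counts Myot was not lower, with 27 counts in KO D2 and 24 in WT D2 (0.235 and 0.227 CPM). The fitted log2 difference was -1.45 for Actn2 (95% interval -3.22 to 0.33), -1.20 for Csrp3 (-2.84 to 0.43), -0.94 for Myoz2 (-2.48 to 0.60) and for Myoz1 (-2.36 to 0.49), and -0.87 for Des (-1.97 to 0.23). It was -0.70 for Ldb3 (-1.59 to 0.18) and for Pdlim3 (-2.28 to 0.88), -0.67 for Tcap, -0.51 for Actn3 and -0.47 for Myot. All 10 intervals include 0 and reach to -1.59 or lower, so large losses and no loss are both within them. An adjusted p under 0.05 was reached by 0 of 10 members (0.0% of all genes), the 1.5-fold rule was met by 0 (0.464%), the rule with log2 over 1.5 by 0 (0.0736%), and an unadjusted p under 0.05 by 0 (1.96%).

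**Figure D3:**
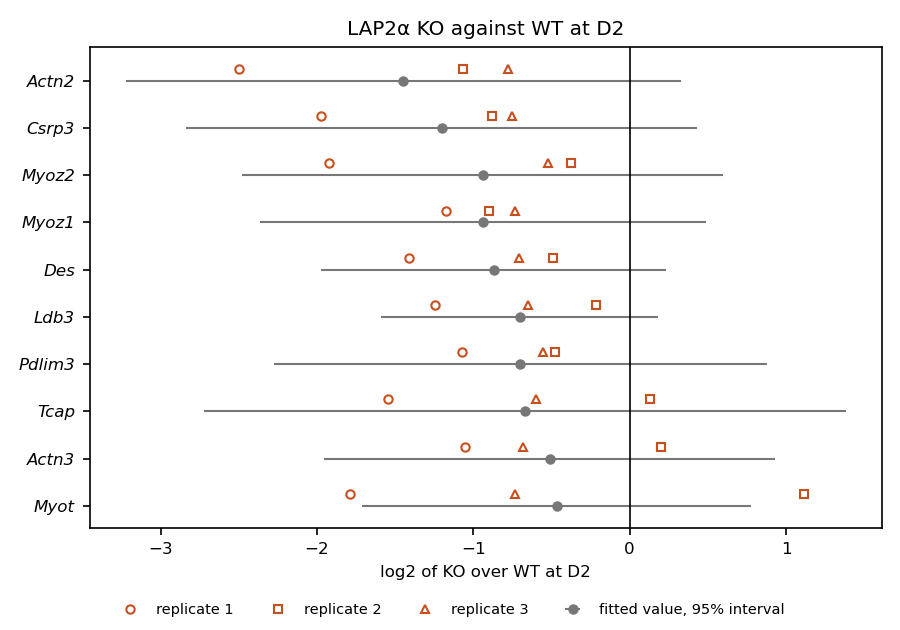
Log2 of KO over WT at D2 for each member, with the fitted value and its 95% interval in grey and the ratio of same-numbered libraries as open symbols (circle, square and triangle for replicates 1, 2 and 3). All fitted values are below 0 and all intervals cross 0. The ratio of replicate 1 is the lowest for 10 of 10 members, and the share of all genes with this order was not computed.

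A lower fitted value was seen for 52.2% of all genes and for 10 of 10 members, with a median of -0.79 for the members and -0.01 over all genes. Myoz1 and Myot entered the test only through WT D2, the group where they are high, and the other 8 members were also lower in 8 of 8, with a median of -0.79. The 3 KO libraries lay below the 3 WT libraries for 6 of 10 members (Actn2, Ldb3, Myoz2, Csrp3, Pdlim3 and Des), beside 3.81% of all genes that were lower without overlap. The members share the same 6 libraries, so these counts do not hold 10 independent observations. Of 30 same-numbered pairs, which come from only 3 pairs of libraries, 27 were lower in KO. The share of such pairs over all genes was not computed. The difference was largest in replicate 1, where the median KO to WT ratio was 0.359, against 0.745 in replicate 2 and 0.618 in replicate 3. The pairs that were not lower in KO were those of Actn3, Myot and Tcap in replicate 2. Without both D2 libraries numbered 1, the members' median was -0.48 and 9 of 10 were lower, with Myot at 0.19. The log2 difference was then -0.92 for Actn2, -0.82 for Csrp3 and for Myoz1, -0.60 for Des, -0.51 for Pdlim3, -0.45 for Myoz2 and -0.43 for Ldb3. It was smaller still for Actn3 (-0.24) and Tcap (-0.23).

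Which members pass at D2 depended on how the spread was modelled. With the replicate number as a fixed block, which the check of pairing allows for this comparison, Ldb3 alone passed an unadjusted p of 0.05 and the 1.5-fold rule (1 member, beside 1.21% of all genes). Voom weights gave 3 by that rule (Actn2, Myoz2 and Des; 0.973% of all genes), voom weights with the number as a random block 4 (Actn2, Ldb3, Myoz2 and Des; 1.6%), and a fit of only KO D2 and WT D2 also 4 (Actn2, Myoz2, Pdlim3 and Des; 0.9%). With a pseudocount of 1 CPM, 2 met the rule (Actn2 and Myoz2; 0.968%), and Actn2 was the only member called by adjusted p (log2 -1.34, adjusted p = 0.0233 with limma). With log2 over 1.5 in place of 1.5-fold, 0 members passed under each of these alternatives. With limma, 7 members had an unadjusted p under 0.05 with the random block (6.35% of all genes) and 1 with the fixed block (5.23%). The count was 5 with only the groups compared (2.18%), 4 with voom weights alone (3.12%) and 4 with the pseudocount (3.72%). No other alternative gave any member an adjusted p under 0.05 at D2, and over the alternatives the adjusted p of Actn2 ran from 0.0233 to 1.

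Values of other genes of the differentiation program at D2 are given beside the members. The summed CPM of the 6 differentiation markers was 4713, 2517 and 2313 in WT D2 and 1620, 1730 and 1375 in KO D2, without overlap, and Myog was at 532, 386 and 261 CPM beside 213, 232 and 148 (unadjusted p = 0.186 with limma). Mef2c differed by log2 -0.82 (unadjusted p = 0.0327 with limma, adjusted p = 1). The 6 fibroblast markers, all listed, summed to 258, 250 and 231 CPM in WT D2 and 413, 425 and 220 in KO D2, with Pdgfra and Dpt the most abundant in KO. The 10 proliferation genes summed to 314 to 499 CPM in WT D2 and 287 to 453 in KO D2. Of the defining genes of other tissues, Cdh5, Ptprc, Adipoq, Sox10 and Myh11 were not among the listed genes, and the listed cardiac markers Myh6 and Tnni3 summed to 5.11 to 11.8 CPM in WT D2 and 2.31 to 4.81 in KO D2. Sums of the listed endothelial, leukocyte, adipocyte and Schwann cell markers stayed at 3.71 CPM or less in each D2 library, and that of the smooth muscle markers Cnn1 and Smtn was 38.3 to 101 in WT and 42.9 to 89.1 in KO. The part of these genes in the members' difference was not tested.

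The rise from Prol to D2 did not differ between genotypes by any adjusted p. The interaction, the KO rise minus the WT rise, was negative for 9 of 10 members (52.3% of all genes), and 0 of 10 were called (0.0%). An unadjusted p under 0.05 was found for Csrp3 (log2 -3.16, 95% interval -5.47 to -0.85, unadjusted p = 0.0106 with limma) and Myoz1 (log2 -2.18, unadjusted p = 0.0363), beside 0.945% of all genes, and for these the adjusted p was 1. The KO Prol libraries of Csrp3 had 3 to 7 counts and those of WT Prol 5, 0 and 0, so the value depends on the 0.5 counts added to each gene. With a pseudocount of 1 CPM the interaction of Csrp3 was -1.02, and without WT Prol replicate 1 it was -4.16. Myoz1 and Myot passed the filter only through WT D2, where they are high, so their negative values lean on that filter. The interaction of Myoz1 rests on 1 count in WT Prol and 4 in KO Prol, and it ran from -2.74 to -0.33 over the alternatives. The interaction of Pdlim3 was 0.02 (SE 1.05), and -0.84 without WT Prol replicate 1. In Prol, its same-numbered KO to WT ratios were 0.154, 0.978 and 1.49, and the genotypes overlapped.

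Set per length of merged exons, the members spanned more than 2 orders of magnitude at D2. Des led with 46.0 ± 13.4 CPM per kb in WT D2 (SD, n = 3) and 24.6 ± 2.43 in KO D2, followed by Actn3 with 19.5 ± 6.17 and 13.3 ± 2.28. Pdlim3 and Myoz2 came next at 13.3 and 13.1 CPM per kb in WT and did not differ beyond their ranges in either genotype. Ldb3 and Actn2 followed at 6.48 and 5.84 CPM per kb in WT, with overlapping ranges there, and at 3.77 and 2.19 in KO, without overlap. Csrp3 was at 2.12 CPM per kb in WT, Tcap at 0.894, Myoz1 at 0.322 and Myot at 0.110, and the last 2 overlapped. The order of the 10 means was the same in WT and KO. In Prol the order was different, with Ldb3 at 1.03 CPM per kb in WT ahead of Des at 0.916, whose ranges overlapped.

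**Figure D4:**
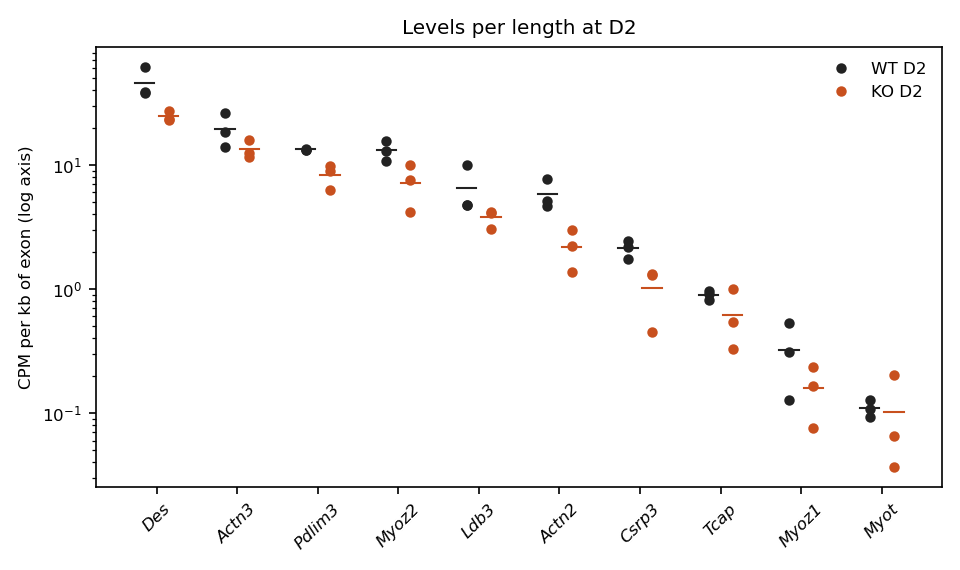
Levels of the members at D2 in CPM per kb of merged exons on a log axis, with 1 point per library and a bar for the mean, WT in black and KO in orange. Des is highest and Myot lowest in both genotypes, and the members keep the same order of means.

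The members' shares of their summed CPM per kb of merged exons were compared between genotypes at D2. Des took 42.4 ± 2.12% (SD, n = 3) of the sum in WT D2 and 40.4 ± 3.07% in KO D2, and Actn3 17.9 ± 2.49% and 21.8 ± 2.20%. Pdlim3 took 12.8 ± 2.78% and 13.5 ± 1.61%, and Myoz2 12.3 ± 1.48% and 11.4 ± 3.16%. Actn2 took 5.63%, 5.07% and 5.46% in the WT libraries and 2.60%, 3.09% and 5.03% in the KO libraries, which lay below them. These shares were not tested.

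Relatives of the members, most of them also found outside the sarcomere, were called in both directions. Of 15 paralogs and relatives listed in the files, 6 were called higher in WT D2 than in Prol (Pdlim2, Pdlim4, Csrp2, Mypn, Nes and Sync), beside 16.6% of all genes. Another 2 were called lower (Actn4 and Pdlim1), beside 14.1% of all genes. In KO the same 6 were higher, beside 17.1%, and the same 2 lower, beside 15.2%. The lower calls, 2 of 15, were thus near the share over all genes. Their median log2 change was 0.54 in WT and 0.55 in KO. Actn4, a cytoskeletal α-actinin, was at 925, 489 and 773 CPM in WT Prol and 498, 195 and 207 in WT D2 (log2 -1.37, adjusted p = 0.037 with limma), opposite in direction to Actn2 and Actn3, though WT D2 replicate 1 reached above WT Prol replicate 2. The WT call of Actn4 was lost without WT Prol replicate 1 (adjusted p = 0.125), WT Prol replicate 3 (0.105), WT D2 replicate 2 (0.135) or WT D2 replicate 3 (0.131), and the KO call without KO Prol replicate 1 (0.131), KO Prol replicate 3 (0.0646), KO D2 replicate 2 (0.148) or KO D2 replicate 3 (0.106). Pdlim1 fell by 1.62 on the log2 scale (adjusted p = 0.00299). Mypn, myopalladin, went from 0 to 1 counts in each WT Prol library to 1.02 to 2.54 CPM in WT D2 (adjusted p = 1.26e-06 with limma). Sync, the intermediate filament protein syncoilin, rose by 2.80 on the log2 scale (adjusted p = 1.39e-06). Between KO and WT at D2, 0 of 15 were called.

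Of 32 other Z-disc-linked genes, 17 were called higher in WT D2 than in Prol (16.6% of all genes) and 16 in KO (17.1%), with Trim54 the only name in the first set and not in the second, and 0 were lower. Their median log2 change was 1.91 in WT and 1.47 in KO. Smpx, a small stretch-responsive muscle protein, went from 0 counts in each WT Prol library to 6.75, 10.3 and 8.28 CPM in WT D2 (adjusted p = 5.1e-06 with limma). Ttn, titin, which spans from the Z-disc to the middle of the sarcomere, rose by 8.51 on the log2 scale in WT (adjusted p = 8.63e-05) and 8.47 in KO. Ankrd1, which carries the stretch-linked repeat protein CARP, had the lowest fitted value at -0.82 (adjusted p = 0.0957) and Fhl2, a LIM-only protein, next at -0.44 (adjusted p = 0.122), and neither was called. Without WT D2 replicate 1, both were called lower in WT, Ankrd1 at -1.23 (adjusted p = 0.0114 with limma) and Fhl2 at -0.63 (adjusted p = 0.0348), and Ankrd1 also in KO without KO D2 replicate 1 (-1.32, adjusted p = 0.0103). The rise of Ttn was 7.82 without WT D2 replicate 1, 7.40 in KO without KO D2 replicate 1 and 7.73 in KO without KO Prol replicate 3. Of the genes not called, the capping protein genes Capza1, Capza2 and Capzb and the calcineurin genes Ppp3ca, Ppp3cb and Ppp3r1 were at 81.7 CPM or more in each Prol library. Between KO and WT at D2, 0 of 32 were called, and 25 had a negative fitted value (median -0.27), beside 52.2% of all genes. By the 1.5-fold rule 2 were lower, the chaperone gene Cryab (log2 -0.79, unadjusted p = 0.0268) and Cavin4 (log2 -0.65, unadjusted p = 0.0178), and the adjusted p of both was 1. Neither reached a log2 change of 1.5.

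**Figure D5:**
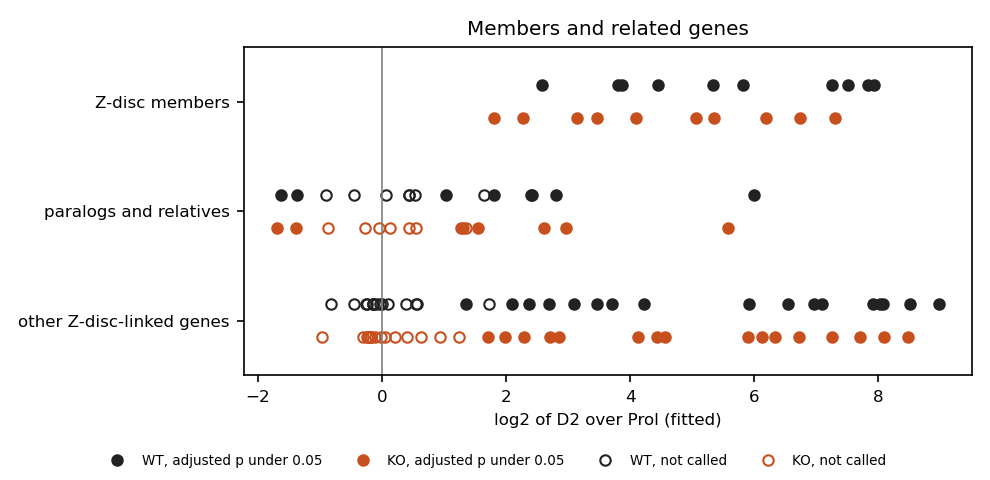
Fitted log2 fold change of D2 over Prol for the 10 members, 15 paralogs and relatives and 32 other Z-disc-linked genes, WT in black and KO in orange, with filled points for an adjusted p under 0.05. All members are filled and right of 0, whereas 2 relatives are filled left of 0 and 15 of the linked genes in WT are open.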

How the data were processed

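The libraries were made with a strand-specific kit from polyA-selected RNA. Per the study's methods and the submitters' processing notes, reads were trimmed with cutadapt, mapped to GRCm38 transcripts with NextGenMap, quantified by strand with RSEM, summed per gene with tximport and tested with limma-voom after TMM scaling in edgeR. The deposited values are CPM, which the authors made from expected counts plus 0.5 and TMM-scaled library totals, so a count of 0 is above 0 CPM. The expected counts were recovered from the CPM (36.0% to 49.1% of values under 20 counts were whole within 0.01 in a library). Library totals were 26437823 to 41619016.

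Symbols came from the annotation, which named 19072 of 19153 genes. A gene was kept if each library of some group held over 5 expected counts of it. Log2 CPM of the 17672 genes kept were fitted with limma 3.58.1 (R 4.3.3; 1 factor of 6 groups, trended empirical Bayes) and adjusted by Benjamini-Hochberg over all genes. The test was checked on simulated data. A further rule after the study's criteria took a change over 1.5-fold, while the methods word it as log2 fold change over 1.5, which was applied as an alternative. The alternatives tried were voom weights, replicate blocks, other scalings, other filters, a pseudocount of 1 CPM, fits of only the groups compared and leaving out each library.

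Same-numbered libraries deviated together from their group means in 40 of 45 pairs (r over 0.1 across genes, range -0.04 to 0.65). All 3 pairs did for KO and WT of the same state, for the 3 comparisons among KO states and for WT Prol and D0, whereas WT D2 had 1 pair under 0.1 with WT Prol and with WT D0. The replicate block is given beside a result where it changes a call. The members and gene lists were chosen with earlier results of these data known. Of each related list, the 2 genes with the highest and the 2 with the lowest fitted change in WT between D2 and Prol were named with values, and other names were chosen after their values were seen.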

Additional observations from a re-analysis of the deposited data

How the results depend on the processing

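Of the members' fold changes under the alternatives, 663 kept their direction and side of the threshold, 8 lost a call, 1 gained a call and 12 changed sign. Of the counts of genes, 331 stayed within 1.5 times of the reported count and 10 did not. With a filter of at least 10 CPM in all 3 libraries of a group, 6 members were called for WT D2 against Prol, 6 for KO D2 against Prol and 6 for KO D2 against D0, since only 6 were tested. Between KO and WT at D2, a pseudocount of 1 gave 1 member called (Actn2, log2 -1.34, adjusted p = 0.0233 with limma) and 1 linked gene called. There the 1.5-fold rule gave 3 members with voom weights, 1 with the replicate block, 4 with a random replicate block, voom weights and all deposited genes, 2 with a pseudocount of 1 and 4 with only the groups compared, against 0 reported, and log2 over 1.5 in its place gave 0 under each. The cause was not tested.

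Changes of sign were seen for values near 0 or low counts. Between KO and WT at D2, Myot ranged from -1.15 to 0.076 over the libraries left out and was 0.19 without both D2 libraries numbered 1, an alternative chosen after seeing the data, as was a log2 fold change threshold of 1.5. In the interaction Myot ranged from -1.08 to 0.14 (0.26 without both), Tcap from -1.66 to 0.25 and Pdlim3 from -0.84 to 0.63, with Pdlim3 at -0.011 with library totals alone and -0.16 with a pseudocount of 1. Library totals alone moved the median of all genes from -0.01 to 0.15 for WT D2 against Prol. The replicate block changed the call of 1 more member, Tcap in WT D2 against D0 (10 members called), and it gave 10 relatives and 19 linked genes called for KO D2 against Prol. Low counts limit Myot, Myoz1 and Tcap.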

Other observations

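Csrp2, the LIM protein relative of Csrp3 found outside mature striated muscle, was at 64.9, 77.4 and 66.2 CPM in WT D2 and 81.8, 114 and 79.1 in KO D2. Each KO library was above each WT library (log2 0.39, adjusted p = 1 with limma), whereas the KO libraries of Csrp3 were below the WT ones. Pdlim7, a PDZ-LIM relative of Ldb3, was at 151, 149 and 147 CPM in WT D2 and 122, 106 and 123 in KO D2. These genes were chosen after their values were seen.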
